A study of Drosophila melanogaster with 6 samples.

Results

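The protein part of the cytosolic ribosome was followed through 92 genes of Drosophila melanogaster, which are all the genes of the 17494 in the count table whose symbol starts with RpL or RpS, with or without a P, and then a digit. Of these, 54 encode proteins of the large subunit and 38 proteins of the small subunit. By their names, 65 stand alone (single-copy below), and 27 belong to 13 families that hold a second gene with an a or b suffix or a gene called "-like". In each family the copy known to be used throughout the body was taken as the main copy (13 genes), the other lettered copies as minor copies (9 genes) and the -like genes as a class of their own (5 genes). This split came from the names and from known expression, with the levels in these libraries already seen.

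The libraries were bulk RNA-seq of adult ventral nerve cords (VNCs), the part of the fly nervous system that corresponds to the spinal cord, in 3 conditions with 2 libraries each. The labels give an age of 6 days, whereas the methods state another age for the tumor-bearing flies. In poxn > prosRNAi, SypRNAi tumors (labelled as a knockdown of prospero (pros) and Syncrip (Syp)) and in poxn > prosRNAi tumors (knockdown of pros alone), the driver poxn-GAL4 switches on UAS-RNAi transgenes in a small set of neural stem cells, the neuroblasts (NBs). Both tumor genotypes also carried UAS-dicer2 and a red nuclear reporter, and the flies of both sexes came from several crosses. Without the transcription factor Pros, daughter cells of NBs do not differentiate and turn back into NB-like cells, which multiply into a tumor that lasts into the adult. Syp is an RNA-binding protein that marks a late NB state. The wild-type VNCs (labelled WT, with no further genotype) hold no NBs. Every tumor library also contained the wild-type tissue around the tumor. According to the methods, each condition was sequenced as 2 technical replicates of pooled VNCs, so that the p-values below measure the spread between these samples and may leave out differences between animals.

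A ribosome holds 1 copy of nearly every one of these proteins, and in flies most are made from a single gene whose loss of 1 allele slows growth, the Minute phenotype. Ribosomal protein genes are therefore usually expressed at similar and very high levels, highest in growing and dividing cells. Several fly ribosomal proteins have a paralog used mainly in the germline, and some -like genes encode relatives of yeast factors that help to build the large subunit and then leave it.

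Library totals ranged from 86098417 to 128107088 counts, and genes for ribosomal RNA took 15.6% to 23.8% of them. Levels are given as CPM, counts scaled to a common library size with TMM factors over all 6 libraries. The targeted gene pros was at 1030 and 1269 CPM in prosRNAi, SypRNAi tumors, 729 and 809.7 CPM in prosRNAi tumors and 2527 and 2338 CPM in wild-type VNCs. Syp was at 416 and 465 CPM in prosRNAi, SypRNAi tumors, 2047 and 1765 CPM in prosRNAi tumors and 705 and 689 CPM in wild-type VNCs. The level of pros was lower in every tumor library than in the wild type, and that of Syp was lower in prosRNAi, SypRNAi tumors than in both other conditions. The summed level of 6 NB markers (dpn, mira, wor, ase, insc and grh) was 1892 and 1781 CPM in prosRNAi, SypRNAi tumors, 2401 and 2270 CPM in prosRNAi tumors and 12.7 and 11.7 CPM in wild-type VNCs. The sum of 9 neuronal markers ran the other way, from 1217 to 2485 CPM in the 4 tumor libraries and from 7097 to 7241 CPM in the wild-type libraries. Their part in the level of pros was not tested. In bulk tissue, more cells of a type and more RNA per cell cannot be told apart.

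Ribosomal protein transcripts were far more abundant in both tumors than in wild-type VNCs. The 92 genes together reached 77983 and 79155 CPM in prosRNAi, SypRNAi tumors, 95646 and 94971 CPM in prosRNAi tumors and 33342 and 34925 CPM in wild-type VNCs. The 3 conditions did not overlap, with prosRNAi tumors at the top and wild-type VNCs far below. As a share of all counts in a library outside ribosomal RNA genes, this was 9.98% to 10.3% in prosRNAi, SypRNAi tumors, 11.2% to 11.5% in prosRNAi tumors and 4.45% to 4.74% in wild-type VNCs. Nearly all of it came from the 65 single-copy genes and the 13 main copies. The 9 minor copies summed to 443 to 486 CPM in the 4 tumor libraries and to 224 to 236 CPM in the wild-type libraries.

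**Figure D1:**
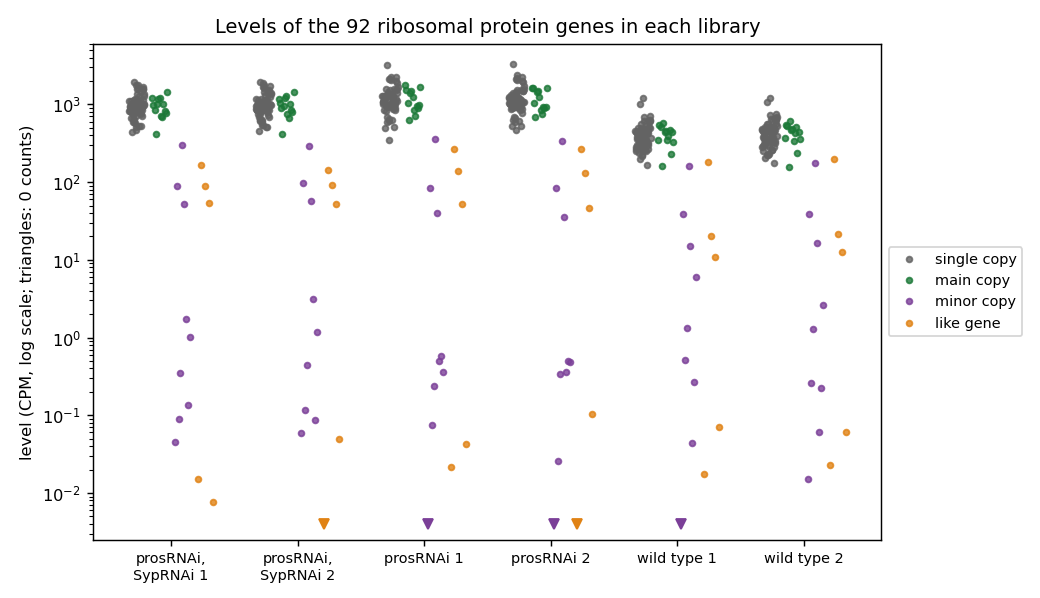
Level of each of the 92 genes in each library (CPM, log scale), with single-copy genes, main copies, minor copies and -like genes in separate colors and genes without a count drawn as triangles. The 78 single-copy and main-copy genes form a band in every library, between 159 and 3285 CPM over all 6 libraries, while most minor copies lie far below it.

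Among the 78 single-copy and main-copy genes the quartiles of the level lay close together, while the extremes spread further. In the first prosRNAi, SypRNAi library the levels ranged from 359 to 4971 CPM per kilobase. Their median was 930 and 953 CPM in prosRNAi, SypRNAi tumors, 1114 and 1104 CPM in prosRNAi tumors and 409 and 439 CPM in wild-type VNCs. Divided by the exonic length of the count table, the levels had quartiles of 825 and 1353 CPM per kilobase in the first prosRNAi, SypRNAi library, 1007 and 1631 CPM per kilobase in the first prosRNAi library and 335 and 554 CPM per kilobase in the first wild-type library. RpL41, which encodes a very short basic peptide of the large subunit, had the highest level per kilobase in all 6 libraries (mean 3624). RpLP2, a protein of the flexible stalk that recruits translation factors, and RpL23, a protein of the face that joins the subunits, came next among the single-copy genes by this mean (1614 and 1546 CPM per kilobase). The lowest 3 of the single-copy genes were RpL23A (388), RpL5 (414) and RpS26 (419.8), whose proteins line the tunnel's outer end, bind the 5S rRNA and line the path of the mRNA. These neighbours changed places between libraries, with RpL5 lowest in prosRNAi, SypRNAi tumors, RpL23A in prosRNAi tumors and RpS26 in the first wild-type library. The exonic length sums every annotated isoform, which for RpL5 makes 3835 bases against a coding length of 897 bases, so that the order at the low end depends on the annotation.

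The first comparison sets prosRNAi, SypRNAi tumors beside prosRNAi tumors. Besides the lower level of Syp, pros was called higher in prosRNAi, SypRNAi tumors (log2 fold change 0.58, adjusted p 0.0274 in edgeR's quasi-likelihood test). The part of pros in the members' levels was not tested. Of the members tested, 42% were lower in prosRNAi, SypRNAi tumors, with RpL27A, RpL3 and RpS9 in front among the single-copy genes. RpS7 and the minor copies RpS15Ab and RpS19b were among those higher, and the genes of the stalk did not pass the test. With edgeR's quasi-likelihood test at an adjusted p under 0.05, 37 of the 88 members tested were lower and 4 higher in prosRNAi, SypRNAi tumors. Over all 13703 genes tested, 12.4% were called lower and 10.9% higher. The median log2 fold change was -0.22 over the tested members and 0.02 over all genes tested. Of the 47 large-subunit genes among the single-copy and main copies, 25 were called lower and 0 higher by this test (38 had an unadjusted p under 0.05), with a median log2 fold change of -0.31. Of the 31 small-subunit genes, 9 were called lower and 1 higher, with a median of -0.20. Whether the subunits differ was not tested.

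These calls rested on small differences and on the scaling. At an adjusted p under 0.001, 0 members were called in either direction by edgeR's quasi-likelihood test, although 63 had an unadjusted p under 0.05, and 0% of all genes were called lower and 0% higher. DESeq2's Wald test called 31 members lower and 2 higher at that threshold, where its share over all genes was not computed. At 0.05, the count without prosRNAi replicate 1 was 1 lower (RpL27A) and 0 higher, and without prosRNAi replicate 2 it was 0 in both directions, where 0.901% and 0.0351% of all genes remained lower and 0.753% and 0.00701% higher. Scaling to the NB genes dpn and grh left 9 members lower and 4 higher, with 4.05% of all genes lower and 13.3% higher. Library totals alone gave 17 lower and 7 higher (6.98% and 17.8% of all genes), and totals without ribosomal RNA genes gave 23 lower and 7 higher (8.01% and 16.7% of all genes). These scalings moved the median of all genes up to 0.20, 0.15 and 0.13 on the log2 scale. A change of scaling shifts all genes by about the same amount. The median of the members minus that of all genes therefore stayed at -0.24, as with TMM scaling, and is no check of the calls. Of the 41 calls, 13 were also made with dpn and grh, 21 with library totals alone and 27 without ribosomal RNA genes in the totals. RpL27A, RpL3, RpS9, RpL5, RpL40, RpL34b, RpL22, RpL24-like and RpS28a were called lower under all of these scalings. Of these, RpS28a had few counts, and only the prosRNAi libraries, where it was higher, carried it past the filter on low counts. RpS6, RpL10Ab, RpL37a and RpL7-like were not called with dpn and grh, and RpL7, RpL24, RpS13, RpS26 and RpS28b were called with none of the 3. Over all tested members, 13 turned from negative to positive with library totals alone, 19 with dpn and grh and 11 without ribosomal RNA genes in the totals, and none of them was called with TMM or with that scaling. Of the genes described here, RpS14a, RpS19a, RpL13A, RpL23 and RpS27A turned with all 3 scalings and RpS15 with dpn and grh. Beside this difference, the sum of the NB markers was lower in prosRNAi, SypRNAi tumors (above), with mira and insc called lower and ase higher. Without mira, left out after its values were seen, the sum of the other 5 was 1411 and 1290.1 CPM in prosRNAi, SypRNAi tumors and 1422 and 1335 CPM in prosRNAi tumors, which overlap. The 12 muscle markers were at 1120 and 1949 CPM in prosRNAi, SypRNAi tumors and 215 and 216 CPM in prosRNAi tumors, with 11 of 12 called higher. The sum of 6 fat body markers was 327 and 245 CPM in prosRNAi, SypRNAi tumors and 1550 and 991 CPM in prosRNAi tumors, with 5 called lower. The sixth, Fbp1, passed the filter on low counts only through the prosRNAi, SypRNAi libraries. Their part in the members' levels was not tested beyond the scaling to dpn and grh.

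**Figure D2:**
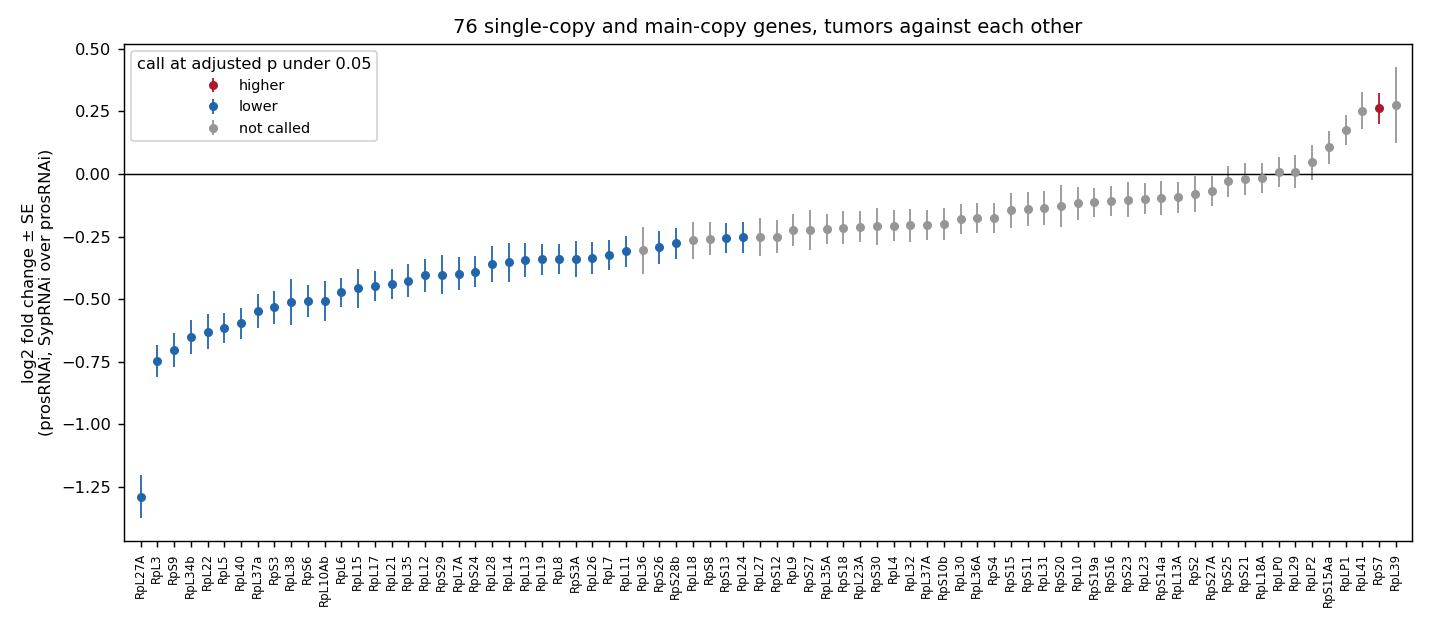
Log2 fold change with its standard error for 76 of the 78 single-copy and main-copy genes in prosRNAi, SypRNAi against prosRNAi tumors, ordered by size, with called genes in color. RpL27A stands alone at -1.29, 68 of these 76 lie below 0 with TMM scaling, and only RpS7 is called above 0.

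RpL27A (FBgn0285948, chromosome 2L, 4457186 to 4458364), a protein of the large subunit, differed most among the single-copy members. It was at 593 and 636 CPM in prosRNAi, SypRNAi tumors, 1584 and 1411 CPM in prosRNAi tumors and 352 and 367 CPM in wild-type VNCs. Its prosRNAi, SypRNAi libraries lay far below both prosRNAi libraries and still above the wild type, with no overlap. The log2 fold change between the tumors was -1.29 (SE 0.086), a level 2.44-fold lower in prosRNAi, SypRNAi tumors (edgeR's adjusted p 0.00416). It ranged from -1.37 to -1.10 over 14 alternative fits, of which 13 called it, and edgeR's adjusted p without prosRNAi replicate 2 was 0.0501. No exon of another gene overlaps RpL27A, and 1 small RNA gene lies in its introns.

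RpL3 and RpS9 came next among the single-copy members. RpL3 (FBgn0020910, chromosome 3R, 11221894 to 11225173), which reaches into the peptidyl transferase center, was at 1958 and 1922 CPM in prosRNAi, SypRNAi tumors, 3227 and 3285 CPM in prosRNAi tumors and 1015 and 1075 CPM in wild-type VNCs. It had the highest CPM of the 78 genes in both prosRNAi libraries. Its log2 fold change between the tumors was -0.75 (SE 0.063), with an adjusted p of 0.00637 in edgeR. RpS9 (FBgn0010408, chromosome 3L, 9509793 to 9511531), an early-binding protein of the small subunit, was at 1017 and 994 CPM in prosRNAi, SypRNAi tumors, 1676 and 1599 CPM in prosRNAi tumors and 373 and 389 CPM in wild-type VNCs. The log2 fold change was -0.70 (SE 0.069), and edgeR's quasi-likelihood test gave an adjusted p of 0.00833. In both genes the 3 conditions stood apart without overlap. Both also share exon sequence with an annotated antisense RNA, over 21% of the exon length of RpL3 and 50.3% of that of RpS9. Since reads were counted without strand, the reads of the partner genes cannot be told apart there.

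RpL5 and RpL40 completed the 5 single-copy genes with the lowest fold change. RpL5 (FBgn0064225, chromosome 2L, 22532279 to 22536884), which carries the 5S rRNA into the ribosome together with RpL11, was at 1375 and 1425 CPM in prosRNAi, SypRNAi tumors, 2095 and 2190 CPM in prosRNAi tumors and 1216 and 1217 CPM in wild-type VNCs. Its prosRNAi, SypRNAi libraries lay closer to the wild type than to the prosRNAi tumors. The log2 fold change between the tumors was -0.62, SE 0.061 (edgeR's adjusted p 0.00859). RpL40 (FBgn0003941, chromosome 2L, 4227699 to 4228561), made as a fusion with ubiquitin, was at 921 and 901 CPM in prosRNAi, SypRNAi tumors, 1360 and 1394 CPM in prosRNAi tumors and 269 and 284 CPM in wild-type VNCs. Here both tumors were well above the wild type, and the log2 fold change between them was -0.60 (SE 0.063), with an adjusted p of 0.0093 in edgeR. RpS27A, the other fusion with ubiquitin, was at 850.3 and 859.9 CPM in prosRNAi, SypRNAi tumors, 904 and 887 CPM in prosRNAi tumors and 433 and 462 CPM in wild-type VNCs, a log2 fold change between the tumors of -0.07 (SE 0.060) that was not called. The ubiquitin fusions thus had different values between the tumors, and the difference of these values was not tested.

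Toward the other end stood RpL39, RpS7, RpL41 and RpLP1. RpS7 (FBgn0039757, chromosome 3R, 30206447 to 30209020), a small-subunit protein whose introns hold 7 small RNA genes, was at 1290 and 1355 CPM in prosRNAi, SypRNAi tumors, 1115 and 1087 CPM in prosRNAi tumors and 493 and 526 CPM in wild-type VNCs. It was the only single-copy member called higher in prosRNAi, SypRNAi tumors, with a log2 fold change of 0.26 (SE 0.062) and an adjusted p of 0.0416 in edgeR, and 8 of 14 alternative fits called it. RpL41 (FBgn0066084, chromosome 2R, 24903416 to 24903935) was at 1591 and 1687 CPM in prosRNAi, SypRNAi tumors, 1304 and 1444 CPM in prosRNAi tumors and 467 and 465 CPM in wild-type VNCs, a log2 fold change of 0.25 (SE 0.074) between the tumors that was not called, although 3 of 14 alternative fits called it. RpL39 (FBgn0023170, chromosome 2R, 24061853 to 24062431), another very short protein, at the exit tunnel, was at 469 and 536 CPM in prosRNAi, SypRNAi tumors, 354 and 476 CPM in prosRNAi tumors and 257 and 233 CPM in wild-type VNCs. Its tumor libraries overlapped, and its log2 fold change of 0.28 (SE 0.15) had the largest standard error of the single-copy members.

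The stalk genes RpLP0, RpLP1 and RpLP2, whose proteins bind the elongation factors, did not pass the test between the tumors. RpLP0 (FBgn0000100, chromosome 3L, 22075867 to 22077487), the base of the stalk, was at 1228 and 1284 CPM in prosRNAi, SypRNAi tumors, 1263 and 1233 CPM in prosRNAi tumors and 449 and 477 CPM in wild-type VNCs. RpLP2 (FBgn0003274, chromosome 2R, 16586129 to 16586732) was at 1300 and 1329 CPM in prosRNAi, SypRNAi tumors, 1316 and 1226 CPM in prosRNAi tumors and 326 and 350.4 CPM in wild-type VNCs. In both genes the libraries of the 2 tumors overlapped, and all tumor libraries lay above the wild type. RpLP1 (FBgn0002593, chromosome 2L, 419952 to 420864) was at 1061 and 1126 CPM in prosRNAi, SypRNAi tumors, 972 and 963 CPM in prosRNAi tumors and 358 and 383 CPM in wild-type VNCs, with the prosRNAi, SypRNAi libraries above the prosRNAi libraries. The log2 fold changes between the tumors were 0.01 (SE 0.061) for RpLP0, 0.17 (SE 0.061) for RpLP1 and 0.05 (SE 0.070) for RpLP2, none of them called. That of RpLP1 was called with library totals alone (0.31) and without ribosomal RNA genes in the totals (0.29).

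RpS6, the target of the growth-controlling kinase S6K, was lower in prosRNAi, SypRNAi tumors. Its levels were 997 and 1024 CPM in prosRNAi, SypRNAi tumors, 1388 and 1483 CPM in prosRNAi tumors and 618 and 637 CPM in wild-type VNCs. The conditions did not overlap, and the log2 fold change between the tumors was -0.51, SE 0.064 (edgeR's adjusted p 0.0121). RpS6 shares 16.9% of its exon length with other genes. RpS12, which flies use to sense cells with too few ribosomal proteins, was at 529 and 515 CPM in prosRNAi, SypRNAi tumors, 632 and 609 CPM in prosRNAi tumors and 358 and 369.6 CPM in wild-type VNCs. Its log2 fold change between the tumors was -0.25 (SE 0.067), with an adjusted p of 0.0555 in edgeR, short of the threshold.

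**Figure D3:**
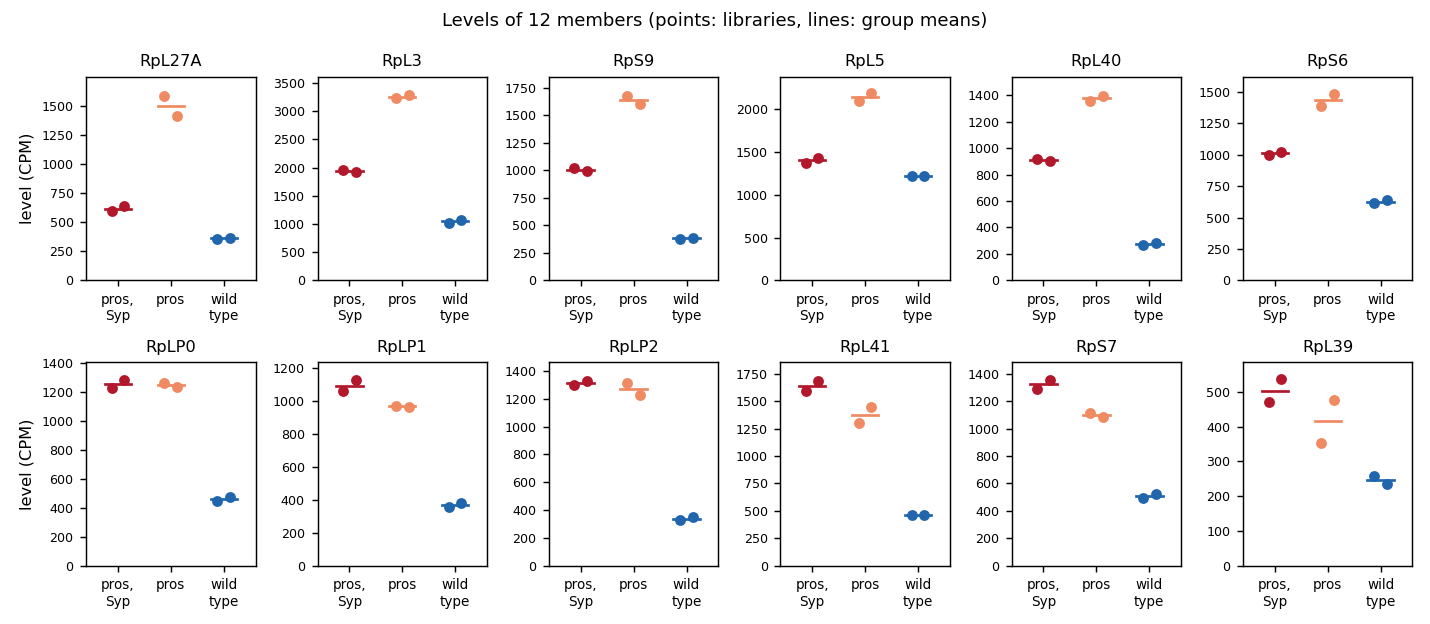
Level (CPM) in each library of 12 members, with prosRNAi, SypRNAi tumors on the left, prosRNAi tumors in the middle and wild-type VNCs on the right of each panel, and lines at the mean of each condition. The upper row holds genes lower in prosRNAi, SypRNAi than in prosRNAi tumors, such as RpL27A, and the lower row holds the stalk genes and those at the other end of the order, such as RpS7.

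The second comparison sets the pros tumors against VNCs without a tumor. Every single-copy gene and every main copy was higher in prosRNAi tumors than in wild-type VNCs, by edgeR's quasi-likelihood test at an adjusted p under 0.05. Of the 89 members tested, 86 were called higher and 3 lower, and over all 14162 genes tested 41.9% were called higher and 40.7% lower. At an adjusted p under 0.001, 83 members were higher and 1 lower, against 29.7% and 24.9% of all genes. The median log2 fold change was 1.47 over the tested members and 0.01 over all genes tested. Library totals alone lowered the median of all genes to -0.27 and that of the members to 1.18, and totals without ribosomal RNA genes to -0.18 and 1.27. The part of the NB and neuronal markers, which differ between these conditions (above), in the members' levels was not tested.

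The increase was not equal among the single-copy genes. RpL40 (2.33, SE 0.075), RpL4, a large-subunit protein that lines the exit tunnel (2.17, SE 0.073), RpS9 (2.12, SE 0.078), RpS13, a protein of the small subunit (2.08, SE 0.068), and RpL27A (2.08, SE 0.093) had the highest log2 fold changes. RpL4 was at 1802 and 1872 CPM in prosRNAi, SypRNAi tumors, 2135 and 2097 CPM in prosRNAi tumors and 476 and 478 CPM in wild-type VNCs. RpS13 was at 909.9 and 898 CPM in prosRNAi, SypRNAi tumors, 1080 and 1078 CPM in prosRNAi tumors and 257 and 259 CPM in wild-type VNCs. Both genes were at least 3 times higher in every tumor library than in either wild-type library. At the low end were RpL29, a small basic protein of the large subunit (0.51, SE 0.069), RpL39 (0.77, SE 0.15), RpS12 (0.79, SE 0.068), RpL5 (0.83, SE 0.072) and RpS15, a protein near the decoding site (1.01, SE 0.079). RpL29 was at 626 and 608 CPM in prosRNAi, SypRNAi tumors, 600.5 and 626 CPM in prosRNAi tumors and 425 and 447 CPM in wild-type VNCs. Its tumor libraries overlapped and were only moderately above the wild type. RpL29 was no longer called in this comparison with library totals alone, which gave a log2 fold change of 0.22. RpS15 was at 1048 and 1076 CPM in prosRNAi, SypRNAi tumors, 1214 and 1133 CPM in prosRNAi tumors and 576 and 604 CPM in wild-type VNCs.

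The third comparison sets the double knockdown against the same wild-type libraries. Of the 89 members tested, 83 were called higher and 3 lower in prosRNAi, SypRNAi tumors than in wild-type VNCs by edgeR's quasi-likelihood test, against 39.8% and 36.7% of all 14289 genes tested. At an adjusted p under 0.001, 76 were higher, against 22.6% of all genes. None of the members was lower at this threshold by edgeR's test (87 had an unadjusted p under 0.05 in either direction), against 14.4% of all genes. DESeq2's Wald test called 2 members lower there, and its share over all genes was not computed. The median log2 fold change was 1.21 over the tested members and 0.04 over all genes tested. RpL5 was the only single-copy member not called, with a log2 fold change of 0.21 (SE 0.082) and an adjusted p of 0.0737 in edgeR, and 2 of 13 alternative fits called it. The lowest after RpL5 were RpL29 (0.51, SE 0.075), RpS12 (0.52, SE 0.071), RpS6 (0.69, SE 0.077) and RpL27A (0.78, SE 0.079). The highest were RpLP2 (1.96, SE 0.086), RpL4 (1.95, SE 0.084), RpL13A, a large-subunit protein (1.90, SE 0.080), RpL41 (1.82, SE 0.085) and RpS13 (1.81, SE 0.074). RpL13A was at 914 and 976 CPM in prosRNAi, SypRNAi tumors, 1007 and 1007 CPM in prosRNAi tumors and 253 and 253 CPM in wild-type VNCs. The comparisons with the wild type share their wild-type libraries, so that their values are given side by side and are not independent.

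**Figure D4:**
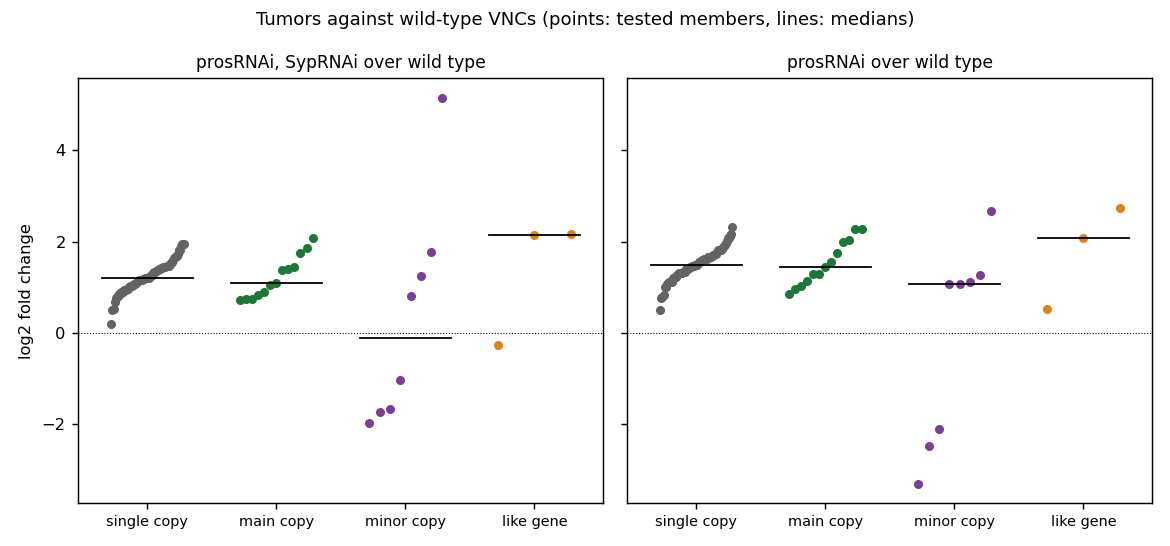
Log2 fold change of the tested members against wild-type VNCs, for prosRNAi, SypRNAi tumors on the left and prosRNAi tumors on the right, by class, with a line at the median of each class. Single-copy genes and main copies all lie above 0 in both panels, whereas the minor copies lie on both sides of 0.

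The families with paralogs were compared by the share of each copy in the family's summed level per kilobase. The libraries of 2 conditions did not overlap in 11 of 14 shares between the tumors, in 12 between prosRNAi tumors and wild-type VNCs and in 13 between prosRNAi, SypRNAi tumors and wild-type VNCs. This is a description of 2 libraries against 2 with no test. No background over other genes was computed for this measure, so that these counts show nothing particular to the families. The RpL34 family encodes a protein of the large subunit. RpL34b (FBgn0037686, chromosome 3R, 9400237 to 9401226), the main copy, was at 416 and 418 CPM in prosRNAi, SypRNAi tumors, 629 and 679.6 CPM in prosRNAi tumors and 164 and 159 CPM in wild-type VNCs. RpL34a (FBgn0039406, chromosome 3R, 26058420 to 26059267) was at 90.0 and 96.8 CPM in prosRNAi, SypRNAi tumors, 84.8 and 84.1 CPM in prosRNAi tumors and 39.2 and 39.5 CPM in wild-type VNCs. RpL34b was lower in prosRNAi, SypRNAi than in prosRNAi tumors (log2 fold change -0.65, SE 0.067, edgeR's adjusted p 0.00883), whereas RpL34a had a log2 fold change of 0.14 (SE 0.064) that was not called. Of the family's level per kilobase, RpL34a held 24.4% and 25.7% in prosRNAi, SypRNAi tumors, 16.8% and 15.6% in prosRNAi tumors and 26.3% and 27.1% in wild-type VNCs. Its share in prosRNAi tumors was below that in both other conditions without overlap, and its share in prosRNAi, SypRNAi tumors was near that of the wild type. Both copies were higher in each tumor than in the wild type, RpL34b by 2.04 (SE 0.072) and RpL34a by 1.12 (SE 0.063) on the log2 scale in prosRNAi tumors.

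In the RpS15A family, which encodes a protein of the small subunit, the minor copy was higher. RpS15Ab (FBgn0033555, chromosome 2R, 10821676 to 10822399), a gene in 1 exon, was at 51.7 and 57 CPM in prosRNAi, SypRNAi tumors, 40.3 and 36 CPM in prosRNAi tumors and 15.1 and 16.6 CPM in wild-type VNCs. The main copy RpS15Aa (FBgn0010198, chromosome X, 13335637 to 13337705) was at 1005 and 1021 CPM in prosRNAi, SypRNAi tumors, 966 and 914 CPM in prosRNAi tumors and 471 and 507 CPM in wild-type VNCs. RpS15Ab was called higher in prosRNAi, SypRNAi than in prosRNAi tumors (0.51, SE 0.087, edgeR's adjusted p 0.0212), and RpS15Aa, at 0.11 (SE 0.066), was not. The share of RpS15Ab was 6.28% and 6.78% in prosRNAi, SypRNAi tumors, 5.16% and 4.89% in prosRNAi tumors and 4.02% and 4.1% in wild-type VNCs. The 3 conditions stood apart, with the largest share in prosRNAi, SypRNAi tumors.

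RpS14a and RpS14b lie next to each other on chromosome X (7933742 to 7934677 and 7934898 to 7935792) and encode the same protein. RpS14a was at 694 and 678 CPM in prosRNAi, SypRNAi tumors, 705 and 761 CPM in prosRNAi tumors and 394 and 429 CPM in wild-type VNCs. RpS14b was at 298 and 295 CPM in prosRNAi, SypRNAi tumors, 359 and 339 CPM in prosRNAi tumors and 161 and 176 CPM in wild-type VNCs. RpS14b held 38.7% and 39% in prosRNAi, SypRNAi tumors, 42.8% and 39.5% in prosRNAi tumors and 37.5% and 37.6% in wild-type VNCs. The prosRNAi libraries differed from each other by more than the other 2 conditions did. Since the files that were counted are named as uniquely mapped reads, reads that match both copies could be lost, and the split between the 2 genes is uncertain.

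The -like genes with measurable levels were those related to yeast assembly factors. RpL24-like (FBgn0037899, chromosome 3R, 11430740 to 11431582), related to the yeast factor Rlp24, was at 166 and 145 CPM in prosRNAi, SypRNAi tumors, 268 and 269 CPM in prosRNAi tumors and 179.6 and 196 CPM in wild-type VNCs. RpL24 (FBgn0032518, chromosome 2L, 13393687 to 13395131), the ribosomal protein, was at 839 and 906 CPM in prosRNAi, SypRNAi tumors, 1039 and 1038 CPM in prosRNAi tumors and 509 and 527 CPM in wild-type VNCs. RpL24-like was lower in prosRNAi, SypRNAi than in prosRNAi tumors at a log2 fold change of -0.79, SE 0.096 (edgeR's adjusted p 0.0115). It was the only -like gene tested that was not called higher than the wild type in prosRNAi, SypRNAi tumors, with a log2 fold change of -0.27 (SE 0.099) and an adjusted p of 0.0606 in edgeR. It was called lower there in 5 of 13 alternative fits, among them that with DESeq2's size factors, at -0.31. In prosRNAi tumors it was higher than in the wild type by 0.53 (SE 0.072), a call that was lost with library totals alone (0.25). RpL24-like thus held 24.5% and 20.7% in prosRNAi, SypRNAi tumors, 29.6% and 29.8% in prosRNAi tumors and 36.6% and 37.8% in wild-type VNCs, the largest share of any -like gene. RpL24 itself was lower in prosRNAi, SypRNAi than in prosRNAi tumors at a log2 fold change of -0.25 (SE 0.063), with an adjusted p of 0.0468 from edgeR's test and a call in only 5 of 14 alternative fits, and shares 21.6% of its exon length with CG7099.

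RpL7-like (FBgn0032404, chromosome 2L, 12056326 to 12058251), related to the yeast factor Rlp7, was at 90.3 and 92.8 CPM in prosRNAi, SypRNAi tumors, 141 and 132 CPM in prosRNAi tumors and 20.2 and 21.4 CPM in wild-type VNCs. Of its exon length, 98.8% is shared with CG34164, and the 2 genes cannot be told apart in these counts. The locus was lower in prosRNAi, SypRNAi than in prosRNAi tumors at a log2 fold change of -0.58, SE 0.068 (edgeR's adjusted p 0.0108) and higher than the wild type by 2.14 (SE 0.067) in prosRNAi, SypRNAi tumors and by 2.73 (SE 0.077) in prosRNAi tumors. The main copy RpL7 was at 1192 and 1216 CPM in prosRNAi, SypRNAi tumors, 1507 and 1502 CPM in prosRNAi tumors and 439 and 469 CPM in wild-type VNCs, a log2 fold change of -0.32 (SE 0.059) between the tumors that was called. The share of RpL7-like in the RpL7 family was 4.7% and 4.73% in prosRNAi, SypRNAi tumors, 5.73% and 5.43% in prosRNAi tumors and 2.9% and 2.88% in wild-type VNCs. RpLP0-like (FBgn0033485, chromosome 2R, 10098518 to 10099590), related to the yeast factor Mrt4, was at 53.8 and 53 CPM in prosRNAi, SypRNAi tumors, 52.2 and 47.2 CPM in prosRNAi tumors and 10.9 and 12.7 CPM in wild-type VNCs. Its log2 fold change between the tumors, 0.10 (SE 0.079), was not called, and against the wild type it was 2.18 (SE 0.092) in prosRNAi, SypRNAi tumors and 2.09 (SE 0.10) in prosRNAi tumors.

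**Figure D5:**
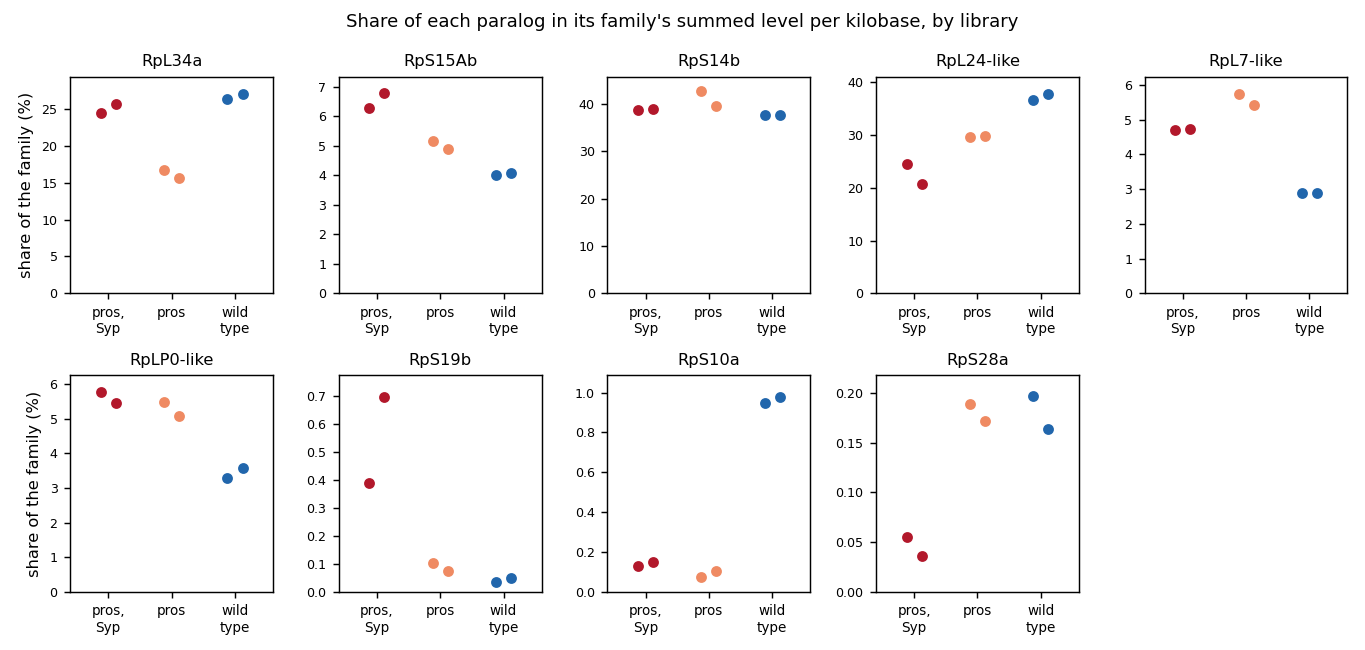
Share of 9 minor copies and -like genes in the summed level per kilobase of their family (percent, a separate axis in each panel), with prosRNAi, SypRNAi tumors on the left, prosRNAi tumors in the middle and wild-type VNCs on the right, each point a library. RpL34a is lowest in prosRNAi tumors, RpS19b is highest in prosRNAi, SypRNAi tumors, and RpS10a is highest in wild-type VNCs.

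Some minor copies had few counts, and several are known from the fly germline. RpS19b (FBgn0039129, chromosome 3R, 23932729 to 23933530), a germline-enriched copy, had 227 and 325 counts in prosRNAi, SypRNAi tumors, 47 and 28 counts in prosRNAi tumors and 5 and 8 counts in wild-type VNCs. These are 1.71 and 3.18 CPM in prosRNAi, SypRNAi tumors, 0.502 and 0.362 CPM in prosRNAi tumors and 0.0437 and 0.0606 CPM in wild-type VNCs, with prosRNAi, SypRNAi tumors above prosRNAi tumors and both above the wild type in every library. Its log2 fold change was 2.43 (SE 0.39) between the tumors (edgeR's adjusted p 0.0186), and against the wild type 5.16 (SE 0.45) in prosRNAi, SypRNAi tumors and 2.67 (SE 0.40) in prosRNAi tumors. Only the tumor libraries carried it past the filter on low counts in the comparisons with the wild type. The main copy RpS19a was at 825 and 851 CPM in prosRNAi, SypRNAi tumors, 902 and 908 CPM in prosRNAi tumors and 227 and 235 CPM in wild-type VNCs, and RpS19b stayed under 1% of its family in every library, at 0.389% and 0.698% in prosRNAi, SypRNAi tumors, 0.105% and 0.0749% in prosRNAi tumors and 0.0362% and 0.0485% in wild-type VNCs. Of the 6 genes in the ovary and germline list, 3 were called lower and 3 higher than the wild type in prosRNAi, SypRNAi tumors and 3 lower and 2 higher in prosRNAi tumors, and the sum of the list was 14.0 to 60.2 CPM over the 6 libraries. The 3 lower in both tumors were vas, nos and osk, at log2 fold changes of -4.59, -1.41 and -5.74 in prosRNAi, SypRNAi tumors. In each comparison with the wild type, vas and osk reached the filter on low counts in both wild-type libraries but in only 1 tumor library. The counts of osk were 26 and 0 in prosRNAi, SypRNAi tumors and 0 and 24 in prosRNAi tumors. In this list bam and zpg ran in the same order as RpS19b. The level of bam was 41 and 40.6 CPM in prosRNAi, SypRNAi tumors, 20.6 and 21.9 CPM in prosRNAi tumors and 0.306 and 0.22 CPM in wild-type VNCs. That of zpg was 10.1 and 7.84 CPM in prosRNAi, SypRNAi tumors, 6.48 and 7.44 CPM in prosRNAi tumors and 2.03 and 1.03 CPM in wild-type VNCs. Of the testis list, Mst84Da, dj and ocn were at 0.117 to 0.211 CPM in prosRNAi, SypRNAi tumors and 0 to 0.0258 CPM in prosRNAi tumors, and they passed the filter only through the libraries in which they were higher. Their part in the level of RpS19b was not tested.

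RpS10a (FBgn0027494, chromosome 3R, 27652760 to 27653363), the minor copy of RpS10, had 47 and 46 counts in prosRNAi, SypRNAi tumors, 22 and 26 counts in prosRNAi tumors and 150 and 171 counts in wild-type VNCs. Both wild-type libraries lay above all tumor libraries. The log2 fold change against the wild type was -1.66 (SE 0.25) in prosRNAi, SypRNAi tumors and -2.11 (SE 0.27) in prosRNAi tumors, both called, while that between the tumors, 0.47 (SE 0.36), was not. RpS10b, the main copy, was at 701 and 762 CPM in prosRNAi, SypRNAi tumors, 836 and 841 CPM in prosRNAi tumors and 353 and 338 CPM in wild-type VNCs. RpS28a (FBgn0039739, chromosome 3R, 30022345 to 30022648) had 18 and 9 counts in prosRNAi, SypRNAi tumors, 54 and 39 counts in prosRNAi tumors and 31 and 30 counts in wild-type VNCs. It was called lower in prosRNAi, SypRNAi than in prosRNAi tumors, at a log2 fold change of -2.08, SE 0.39 (edgeR's adjusted p 0.0253). Only the prosRNAi libraries carried it past the filter on low counts in that comparison. The call was lost in 3 of 13 alternative fits, without prosRNAi, SypRNAi replicate 2 and without either prosRNAi library. Against the wild type RpS28a was at -1.03 (SE 0.40) in prosRNAi, SypRNAi tumors, not called, and at 1.08 (SE 0.30) in prosRNAi tumors, called there and in 8 of 13 alternative fits. The main copy RpS28b was at 784 and 793 CPM in prosRNAi, SypRNAi tumors, 973 and 935 CPM in prosRNAi tumors and 439 and 443 CPM in wild-type VNCs.

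Still fewer counts were found for RpL37b and for paralogs near the floor of 3 counts in a library, which is 0.0226 to 0.0388 CPM here. RpL37b (FBgn0034822, chromosome 2R, 23100057 to 23100478, RpL37-2 in newer annotation) had 12 and 12 counts in prosRNAi, SypRNAi tumors, 7 and 2 counts in prosRNAi tumors and 58 and 34 counts in wild-type VNCs. It was tested only against the wild type. In the comparison of prosRNAi tumors with the wild type, only the wild-type libraries carried it past the filter. Its log2 fold change was -1.73 (SE 0.47) in prosRNAi, SypRNAi tumors and -2.48 (SE 0.57) in prosRNAi tumors, both called, and neither call was made without wild-type replicate 1 (-1.17 and -1.95). RpL10Aa had 6 and 6 counts in prosRNAi, SypRNAi tumors, 0 and 0 counts in prosRNAi tumors and 0 and 2 counts in wild-type VNCs. RpS28-like had 1 to 8 counts and RpL22-like 0 to 3 counts in a library, and these 3 genes were not tested. RpL22-like, known from the germline, was thus at or under the floor in every library and not detectable at this depth, and the other 2 were barely above it. Their main copies were abundant. RpL10Ab was at 1218 and 1172 CPM in prosRNAi, SypRNAi tumors, 1769 and 1620 CPM in prosRNAi tumors and 346 and 365 CPM in wild-type VNCs. RpL22 was at 993 and 1048 CPM in prosRNAi, SypRNAi tumors, 1513 and 1641 CPM in prosRNAi tumors and 552 and 541 CPM in wild-type VNCs. RpL37a was at 1005 and 964 CPM in prosRNAi, SypRNAi tumors, 1413 and 1461 CPM in prosRNAi tumors and 582 and 610.1 CPM in wild-type VNCs. Each of these 3 main copies was called lower in prosRNAi, SypRNAi than in prosRNAi tumors, at log2 fold changes of -0.51 (SE 0.080) for RpL10Ab, -0.63 (SE 0.069) for RpL22 and -0.55 (SE 0.067) for RpL37a. The RpL22 counts include reads of CR42491, with which it shares 34.3% of its exon length.

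A measure within each library does not depend on the scaling between libraries. For this, the level per kilobase of each gene was given as a percent of the sum over the 78 single-copy and main-copy genes. RpL27A took 1.07% and 1.13% in prosRNAi, SypRNAi tumors, 2.4% and 2.16% in prosRNAi tumors and 1.51% and 1.5% in wild-type VNCs. Its share was lowest in prosRNAi, SypRNAi tumors and highest in prosRNAi tumors, with the wild type between them. RpL5 took 0.409% and 0.416% in prosRNAi, SypRNAi tumors, 0.525% and 0.552% in prosRNAi tumors and 0.859% and 0.822% in wild-type VNCs, and RpL29 1.83% and 1.75% in prosRNAi, SypRNAi tumors, 1.48% and 1.56% in prosRNAi tumors and 2.96% and 2.97% in wild-type VNCs. Both held their largest share in the wild type. RpS12 took 0.984% and 0.941% in prosRNAi, SypRNAi tumors, 0.989% and 0.961% in prosRNAi tumors and 1.58% and 1.56% in wild-type VNCs, with overlapping tumor libraries and the wild type above them. RpL41 took 5.67% and 5.91% in prosRNAi, SypRNAi tumors, 3.91% and 4.36% in prosRNAi tumors and 3.95% and 3.77% in wild-type VNCs, the largest share of all in each library. RpLP2 took 2.45% and 2.47% in prosRNAi, SypRNAi tumors, 2.09% and 1.96% in prosRNAi tumors and 1.46% and 1.5% in wild-type VNCs, with the tumors above the wild type and prosRNAi, SypRNAi tumors highest. The 3 conditions did not overlap in the shares of RpL27A, RpL5 and RpLP2.

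The members are scattered over the genome, with 19 on chromosome arm 2L, 21 on 2R, 14 on 3L, 23 on 3R, 1 on chromosome 4 and 14 on X. In 27 of them, introns hold small RNA genes, 65 in all. Of these 27, 14 were called lower and 1 higher in prosRNAi, SypRNAi than in prosRNAi tumors (median log2 fold change -0.31), against 23 lower and 3 higher of the 61 tested members without such genes (median -0.21). Over all genes tested, 12.4% were called lower and 10.9% higher. All minor copies and -like genes are among the members without small RNA genes, and whether the groups differ was not tested. Exons of 12 members overlap those of other genes over 10% or more of their length. Without these 12, 31 of 77 tested members were lower and 4 higher between the tumors, with a median of -0.21.

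Some related genes lie outside the rule. The ribosomal proteins sta and Rack1, whose symbols the rule does not match, were both called lower in prosRNAi, SypRNAi than in prosRNAi tumors (log2 fold changes -0.46 and -0.35) and higher than the wild type in both. Of 7 elongation factor genes, 1 was called between the tumors by edgeR's test, eEF2, which was lower at -0.34. Of 14 ribosome assembly genes, 2 were called, RIOK1 and eIF6, both lower, where 12.4% of all genes tested were called lower. Against the wild type all 14 assembly genes were higher in both tumors (median log2 fold change 2.03 in prosRNAi, SypRNAi tumors and 2.18 in prosRNAi tumors), and 6 of 7 elongation factor genes were higher, while eEF1alpha2, the form used in neurons, was lower. Of 5 regulators of ribosome production, Myc and 3 subunits of RNA polymerase I were higher than the wild type in both tumors and Tif-IA was not called. Between the tumors, RpI135 was the only one of the 5 called, at -0.39, and Myc was at 1454 and 1112 CPM in prosRNAi, SypRNAi tumors, 935 and 904 CPM in prosRNAi tumors and 180.1 and 217 CPM in wild-type VNCs, a log2 fold change of 0.48 with an adjusted p of 0.0781 in edgeR.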

How the data were processed

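The authors mapped the reads with Subread and deposited whole-number counts per gene from featureCounts 1.5.0, made per the file header on exons of the FlyBase release 6.19 annotation of the dmel6 genome. The submitters' processing notes also list dm3 and bcl2fastq 2.17.1.14. Per the header, a read was counted for every gene it overlaps, with no strand or pair option, so that overlapping genes share reads. The libraries came from total RNA depleted of ribosomal RNA, although the labels name polyA RNA.

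From these deposited counts, levels were computed as CPM with TMM factors over all 6 libraries. Exonic length came from the table. Each comparison used the 4 libraries of its 2 conditions, a filter on low counts (filterByExpr, minimum count 10) and edgeR 4.0.16's quasi-likelihood test with limma 3.58.1 in R 4.3.3, p-values adjusted by Benjamini-Hochberg over all genes tested and a prior count of 2, called at an adjusted p under 0.05. DESeq2 1.42.0 was an alternative, and the code was tested on simulated data. Alternatives covered scaling, filter, test, libraries in the fit, threshold, replicate block, length and leaving out each library. Intervals for counting error alone would be narrow for members with many counts and wide for those with few, such as RpL37b. A level of 3 counts was taken as the floor. The 2 libraries of each condition differed by more than sampling noise (chi-square per degree of freedom of 95.2 in prosRNAi, SypRNAi tumors, 153 in prosRNAi tumors and 201 in wild-type VNCs). Figures were drawn with matplotlib 3.10.9.

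The members and gene lists were chosen with earlier results of these data known. Named were all members of families with paralogs, in each comparison the 5 single-copy genes with the highest and the 5 with the lowest log2 fold change, the 3 with the highest and the 3 with the lowest level per kilobase, the stalk genes, the ubiquitin fusions, RpS6 and RpS12. Some genes that this rule names are not reported here. Coordinates are those of the release 6 annotation. Small RNA genes and exon overlaps came from the exons given in the count table. Identifiers and coding lengths came from the BDGP6.54 annotation of Ensembl, in which 91 of the 92 members had the same start and end.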

Additional observations from a re-analysis of the deposited data

How the results depend on the processing

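Between the tumors, leaving out 1 library at a time left 0 to 3 members higher and 0 to 35 lower, with the collapse without either prosRNAi library, where a condition had 1 library whose spread was taken from the other. An adjusted p under 0.001 left 0 and 0. Library totals alone gave 7 higher and 17 lower, totals without ribosomal RNA genes 7 and 23, and dpn and grh 9 lower. DESeq2's Wald test gave 5 higher and 54 lower, where 14.5% and 15.2% of all genes were called. The causes were not tested. In prosRNAi tumors against wild-type VNCs, the count lower was 1 at 0.001, and leaving out 1 library gave 85 to 86 higher and 2 to 3 lower. In prosRNAi, SypRNAi tumors against wild-type VNCs, the count lower was 0 at 0.001 and 5 with all 6 libraries in one fit, and leaving out 1 library gave 83 higher throughout and 2 to 3 lower.

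The log2 ratio of the summed level of the 92 genes was -0.28 between the tumors, 1.48 in prosRNAi tumors against wild type and 1.20 in prosRNAi, SypRNAi tumors against wild type. With library totals alone these were -0.15, 1.21 and 1.07, without ribosomal RNA genes in the totals -0.17, 1.31 and 1.14, and with DESeq2's size factors -0.30, 1.42 and 1.12. Leaving out 1 library gave -0.29 to -0.27, 1.45 to 1.52 and 1.17 to 1.24. The numbers of family shares without overlap (11 between the tumors, 12 and 13 against the wild type) ranged from 11 to 14 when 1 library was left out. Leaving out a library can only raise them. They were the same with coding length or with no length. A change of length cannot reorder the libraries where a family holds a single copy beside the main copy, so this is no check.

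Directions turned only between the tumors and only for members not called, 13 with library totals alone, 19 with dpn and grh, 11 without ribosomal RNA genes in the totals and at most 3 when 1 library was left out. For the members described above, with library totals alone the log2 fold change was 0.038 for RpS14a, 0.020 for RpS19a, 0.039 for RpL13A, 0.034 for RpL23 and 0.065 for RpS27A. With dpn and grh it was 0.084 for RpS14a, 0.071 for RpS19a, 0.039 for RpS15, 0.091 for RpL13A, 0.083 for RpL23 and 0.12 for RpS27A. Without ribosomal RNA genes in the totals it was 0.019 for RpS14a, 0.0019 for RpS19a, 0.021 for RpL13A, 0.016 for RpL23 and 0.047 for RpS27A. When 1 library was left out, RpLP0 ranged from -0.011 to 0.029 (negative without prosRNAi, SypRNAi replicate 2 and without prosRNAi replicate 2), RpLP2 from -0.0049 to 0.10 (negative without prosRNAi replicate 2) and RpL29 from -0.033 to 0.044 (negative without prosRNAi, SypRNAi replicate 1 and without prosRNAi replicate 1).

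The replicate numbers mark no shared batch in the labels, and deviations of same-numbered libraries correlated at 0.37 between the tumors, at -0.31 for prosRNAi tumors with wild type and at -0.10 for prosRNAi, SypRNAi tumors with wild type over 11254 genes. With the number as a replicate block, 3 members were called higher and 35 lower between the tumors (12.7% and 12.6% of all genes). Against wild type, the counts were 86 and 3 in prosRNAi tumors (40.6% and 39%) and 83 and 2 in prosRNAi, SypRNAi tumors (37.9% and 34.6%). With crossed pairing of the replicates, chosen after seeing the data, the counts against wild type were 86 and 3 in prosRNAi tumors (41.5% and 40.4% of all genes). In prosRNAi, SypRNAi tumors they were 83 and 4 (37.9% and 34.4%).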

Other observations

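The marker lists for other cell types were counted beside the members. Of 9 neuronal genes, all were lower than the wild type in both tumors and 3 were higher in prosRNAi, SypRNAi than in prosRNAi tumors. Of 7 glial genes, 6 were lower and 1 higher than the wild type in prosRNAi, SypRNAi tumors and all 7 were lower in prosRNAi tumors. Between the tumors, 3 glial genes were higher and 1 lower. All 6 NB markers were higher than the wild type in both tumors, and between the tumors 1 was higher and 2 lower. Of 12 muscle genes, 7 were higher and 2 lower than the wild type in prosRNAi, SypRNAi tumors, and all 12 were lower in prosRNAi tumors. Of 6 fat body genes, 5 were lower and 1 higher than the wild type in prosRNAi, SypRNAi tumors and all 6 were lower in prosRNAi tumors. Of 6 testis genes, betaTub85D and bol were lower than the wild type in both tumors, and the calls of the others (Mst84Da and ocn higher in prosRNAi, SypRNAi tumors, Mst87F lower in prosRNAi tumors) came from genes that passed the filter on low counts only through the libraries in which they were higher, as did Fbp1 of the fat body list in prosRNAi tumors.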
